A study of Mus musculus with 18 samples.

Results

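The transcription factors that establish and keep the macrophage programme were followed as a group of 9 genes in murine bone marrow-derived macrophages (BMMs). The group consists of Spi1, Cebpa, Cebpb, Cebpd, Maf, Mitf, Bhlhe40, Bhlhe41 and Runx1, each found by its gene symbol, and all 9 were present among the 38887 genes measured and passed the filter on low counts in every comparison. BMMs were grown with M-CSF from the marrow of female C57BL/6J mice and were left untreated or exposed to 100 ng/ml bacterial lipopolysaccharide (LPS) for 4 h. There were 3 genotypes: wild type (WT), myeloid knockout of the glucocorticoid-induced leucine zipper (GILZ KO), and a GILZ transgene (GILZ TG). In GILZ KO, exon 6 of Gilz (Tsc22d3) is floxed and removed by Cre, and in GILZ TG, Cre takes out a stop cassette in front of a Gilz-1 cDNA placed in the ROSA26 locus. Cre is under the Lyz2 promoter in both, so recombination is limited to cells that use this promoter, and the study describes the WT controls as Lyz2-Cre mice as well. Each of the 6 combinations of genotype and treatment had 3 libraries (replicates 1 to 3), made from poly(A) RNA with a directional kit.

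Macrophage identity rests on a small set of DNA-binding proteins that work together at enhancers. PU.1, the ETS factor encoded by Spi1, opens chromatin at myeloid genes, and C/EBPα and RUNX1 act before and beside it while progenitors commit to the myeloid lineage. C/EBPβ and C/EBPδ carry the programme into inflammation, where they are themselves induced and drive cytokine and acute phase genes. MAF holds mature macrophages out of the cell cycle and activates Il10, MITF serves lysosomal and osteoclast genes, and BHLHE40 and BHLHE41 are repressors that bind E-boxes, including those of the circadian clock. LPS, the ligand of Toll-like receptor 4, is the classical inflammatory stimulus for these cells, and GILZ is an anti-inflammatory protein whose own message falls when macrophages are activated. The design asks how the factors respond to LPS and whether the loss or excess of GILZ alters them.

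Reads assigned to genes numbered 14583055 in the shallowest library, 24450362 in the median one and 38557029 in the deepest. By group, GILZ KO with LPS had the lowest median, 15491518, and GILZ TG with LPS the highest, 33356120. Levels are given as TPM, transcript abundances scaled to library size and corrected for transcript length, so that genes can be compared with one another. Fold changes come from estimated read counts scaled with the trimmed mean of M-values (TMM), as log2 values with a standard error (SE), and a gene was called when its edgeR quasi-likelihood p, adjusted by Benjamini-Hochberg over all genes tested, was below 0.05. The labels number preparations without naming animals, so p-values describe the spread between these libraries. An exact permutation test of 3 against 3 libraries cannot go below a two-sided p of 0.1 and was not used for single genes.

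The labels were checked on Tsc22d3, the gene for GILZ. It stood at 15.78, 14.88 and 18.84 TPM in untreated WT, at 1.89, 2.81 and 2.31 TPM in untreated GILZ KO and at 155.93, 159.83 and 151.97 TPM in untreated GILZ TG. After LPS it was 4.56, 5.81 and 5.09 TPM in WT, 2.96, 3.28 and 2.5 TPM in GILZ KO and 127.42, 140.56 and 127.22 TPM in GILZ TG. The 3 genotypes did not overlap in either treatment, although after LPS the GILZ KO and WT levels were close (log2 difference -0.69, edgeR adjusted p = 0.15). Lyz2, the lysozyme gene that carries Cre, was between 11048 and 15401 TPM in untreated WT but between 17.2 and 53.1 TPM in untreated GILZ KO and GILZ TG. Lyz2 therefore separates WT from the other genotypes although all are described as Lyz2-Cre, and the number of Cre alleles cannot be told apart from the genotype in any comparison with WT.

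The libraries were macrophage RNA by their markers. The summed level of 7 macrophage markers (Adgre1, Csf1r, Cd68, Mertk, Fcgr1, Itgam and Mrc1) lay between 3005 and 3658 TPM in all 18 libraries, with Cd68 the most abundant. GILZ TG replicates 1 and 2 stood apart from the remaining libraries in both treatments. Their 8 stromal markers summed to 104.3 and 120.4 TPM untreated and to 83.4 and 114.8 TPM after LPS, against 10.39 and 10.85 TPM in GILZ TG replicate 3 and no more than 22.93 TPM elsewhere. Their neutrophil markers summed to 173.5 and 449 TPM untreated, led by S100a9, and their B cell and plasma cell markers to 93.55 and 157.8 TPM, led by Ighm, against 62.22 and 36.07 TPM in replicate 3. Markers of T cells, erythroid cells, osteoblasts, dendritic cells and of mast cells and basophils never summed to more than 1 TPM, and Cd3e, Cd8a and Fcer1a were listed at 0 in every library. Values without GILZ TG replicates 1 and 2 are given where results rest on them. They leave 1 GILZ TG library per treatment, which is assumed to vary like the other groups, so a call lost in this way may reflect the single library, and the size of the value is what can be compared. In bulk libraries, fewer cells of a type and less RNA per cell cannot be told apart.

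**Figure D1:**
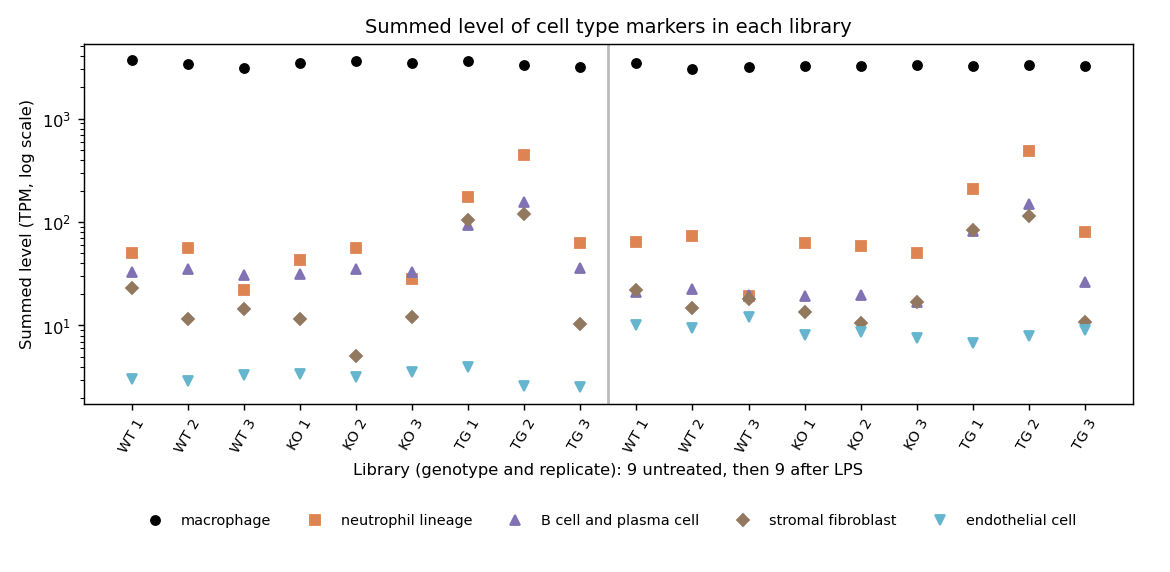
Summed TPM of cell type marker lists in each of the 18 libraries, on a log axis, with a symbol for each cell type. Untreated libraries are placed before LPS libraries, each labelled by genotype and replicate. Macrophage markers lie between 3005 and 3658 TPM throughout, whereas stromal, neutrophil and B cell sums are highest in GILZ TG replicates 1 and 2.

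In untreated WT BMMs Spi1 was the most abundant of the 9 factors, with 404.76, 388.27 and 371.44 TPM, more than 96.7% of the 11671 genes whose mean exceeded 1 TPM. Cebpb followed with 163.77, 180.18 and 217.27 TPM and Maf with 52, 51.76 and 61.93 TPM, and these levels did not overlap with one another. Cebpa (mean 29.6 TPM) and Mitf (mean 29.6 TPM) could not be ordered, because their libraries overlapped. Runx1 (mean 17.8 TPM) and Cebpd (mean 16.1 TPM) overlapped as well, as did Bhlhe41 (mean 10.8 TPM) and Bhlhe40 (mean 9.22 TPM) at the bottom. Untreated GILZ KO and GILZ TG had the same first 7 places, from Spi1 to Cebpd. In GILZ TG Bhlhe40 (mean 12.2 TPM) stood above Bhlhe41 (mean 11.1 TPM), but the libraries of this pair overlapped in all genotypes.

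LPS reordered the group. In WT the order after 4 h was Spi1 (mean 541 TPM), Cebpb (373 TPM), Maf (160 TPM), Cebpd (159 TPM), Mitf (78.9 TPM), Runx1 (11 TPM), Bhlhe40 (3 TPM), Cebpa (2.24 TPM) and Bhlhe41 (1.87 TPM). Maf and Cebpd overlapped, and so did Cebpa and Bhlhe41, while the other neighbours did not. Cebpd moved from above 40.5% to above 90.3% of the genes over 1 TPM, and Cebpa from above 57.5% to above 10.7%. A pooled view over genotypes gave 9 untreated and 9 LPS libraries per gene, and for each of the 9 factors the ranges of TPM did not overlap.

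**Figure D2:**
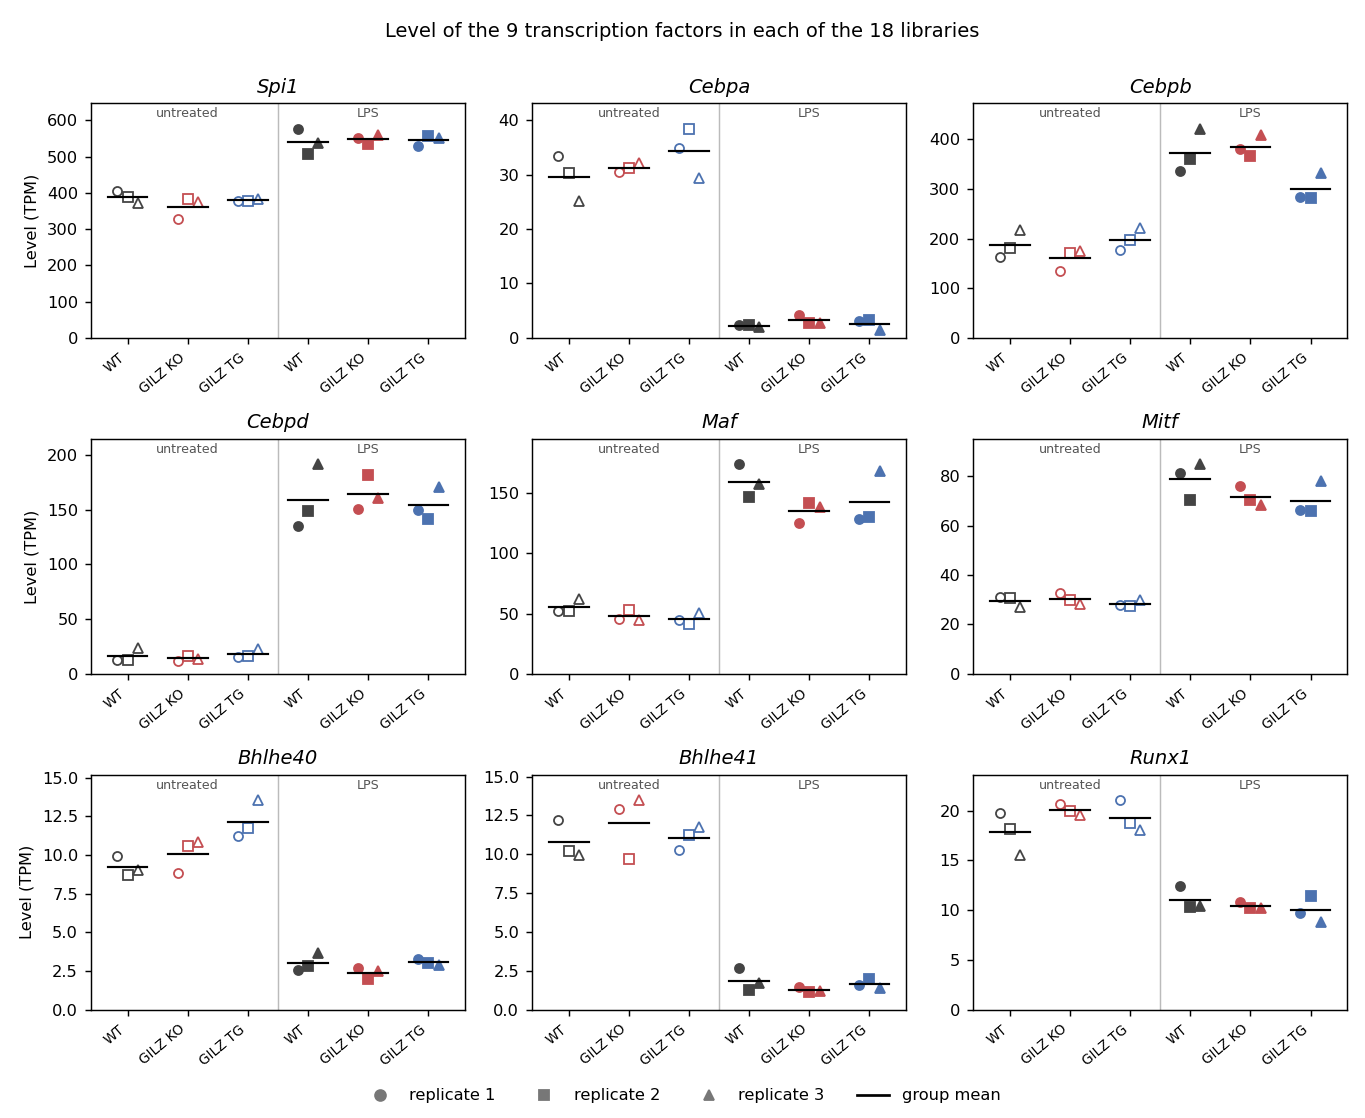
TPM of each of the 9 transcription factors on a linear axis in WT, GILZ KO and GILZ TG, with open symbols for untreated and filled symbols for LPS libraries (3 each) and lines for group means. Spi1, Cebpb, Cebpd, Maf and Mitf lie higher after LPS, and Cebpa, Bhlhe40, Bhlhe41 and Runx1 lie lower on this scale.

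Of the 9 factors, 8 were called in the LPS comparison in WT, and 9 in GILZ KO and in GILZ TG. Among all 13169 genes tested 68.6%, 68.5% and 68.7% were called, so a call by itself was the usual outcome. Spi1, Cebpb, Cebpd, Maf and Mitf were higher in every genotype (background 33.5%, 33.2% and 33.6% of genes). Cebpa, Bhlhe40 and Bhlhe41 were lower in every genotype, joined by Runx1 in GILZ KO and GILZ TG, with a background of lower calls of 35.1%, 35.4% and 35.1%. TPM did not overlap between untreated and LPS libraries for 9 of 9 factors in each genotype, where the share over all genes tested was 81.2%, 83.7% and 80.9%. The median absolute log2 change of the 9 factors was 1.97 in WT, 1.90 in GILZ KO and 1.93 in GILZ TG, and over all genes it was 0.565, 0.576 and 0.553. The 3 comparisons use separate libraries.

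The scaling of the libraries bears on all of these values. After LPS the 200 most abundant genes took 35.26% to 37.06% of reads, against 29.65% to 31.33% in untreated libraries, and TMM factors were 0.756 to 0.828 after LPS and 1.24 to 1.28 without it. Scaling by the library total instead put the median log2 change of all genes at -0.70 in WT, -0.66 in GILZ KO and -0.69 in GILZ TG, where TMM put it at -0.02 in each. With this scaling the calls in WT split into 2100 higher and 8990 lower, against 4415 higher and 4622 lower with TMM, and the median of log2(TPM + 1) shifted by -0.51 in WT. Apart from Runx1 in WT, which moved from not called to called lower, no factor changed its direction or its call with the scaling. By library total the log2 changes in WT were 0.50 for Spi1, 0.95 for Cebpb, 1.31 for Mitf, 1.58 for Maf and 3.26 for Cebpd. Those of the falling factors were -1.90 for Bhlhe40, -2.66 for Bhlhe41 and -3.77 for Cebpa. The fold changes that follow are those with TMM, relative to the median gene, and differ for this reason from ratios of TPM.

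PU.1, C/EBPα and RUNX1, the factors of lineage commitment, moved in different ways. Spi1 (chromosome 2, 91082390 to 91115756, plus strand, GRCm38) rose in WT from 404.76, 388.27 and 371.44 TPM to 577.68, 507.68 and 537.94 TPM. In GILZ KO it rose from 329.05, 383.21 and 373.62 TPM to 551.1, 534.86 and 558.47 TPM, and in GILZ TG from 377.51, 378.7 and 382.23 TPM to 530.22, 558.01 and 550.96 TPM. All LPS libraries were above all untreated ones, and the libraries within a group differed little. The log2 change was 1.18 ± 0.057 (SE, n = 3 against 3; edgeR adjusted p = 5.55e-12) in WT, 1.29 ± 0.057 in GILZ KO and 1.16 ± 0.057 in GILZ TG, a rise of 2.27-, 2.45- and 2.23-fold with TMM. By library total the log2 change of Spi1 was 0.50 in WT, 0.65 in GILZ KO and 0.49 in GILZ TG.

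Cebpa (chromosome 7, 35119293 to 35121928, plus strand) fell the furthest of the 9 factors. It went from 33.47, 30.36 and 25.1 TPM to 2.35, 2.33 and 2.04 TPM in WT. In GILZ KO it went from 30.44, 31.13 and 32.15 TPM to 4.27, 2.74 and 2.67 TPM, and in GILZ TG from 34.9, 38.46 and 29.44 TPM to 3.11, 3.27 and 1.53 TPM. Untreated libraries lay close together and every LPS library was far below them. The fitted fall was 8.54-fold in WT (log2 -3.09 ± 0.19, edgeR adjusted p = 1.30e-10), 6.11-fold in GILZ KO (log2 -2.61 ± 0.19) and 8.12-fold in GILZ TG (log2 -3.02 ± 0.18).

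Runx1 (chromosome 16, 92601466 to 92826149, minus strand) changed least. Its TPM were 19.81, 18.2 and 15.53 in untreated WT and 12.43, 10.28 and 10.42 after LPS. Over all genotypes the untreated libraries ranged from 15.53 to 21.05 TPM with a median of 19.59, and the LPS libraries from 8.76 to 12.43 TPM with a median of 10.28. The TPM of Runx1 were thus lower after LPS in every library, but with TMM the log2 change was -0.05 ± 0.083 in WT (edgeR adjusted p = 0.59), -0.30 ± 0.084 in GILZ KO (adjusted p = 0.0043) and -0.30 ± 0.083 in GILZ TG (adjusted p = 0.0039). Scaled by library total it was -0.73 in WT (adjusted p = 6.82e-07), close to the shift of -0.70 of the median gene. With GILZ TG replicate 3 as the only library of its genotype the log2 change in GILZ TG was -0.33 (adjusted p = 0.0598).

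The inflammatory C/EBP factors both rose. Cebpd (chromosome 16, 15887286 to 15891031, plus strand), known as an early target of inflammatory signals, had the largest increase of the group. Its TPM went from 12.28, 12.81 and 23.06 to 135.23, 149.27 and 191.51 in WT, from 11.74, 16.36 and 13.77 to 150.41, 182.19 and 160.98 in GILZ KO, and from 15.04, 16.36 and 23.01 to 149.81, 141.64 and 170.55 in GILZ TG. Replicate 3 was the highest untreated library in WT and in GILZ TG, and it was also the highest after LPS there, but no untreated library came near the LPS range. The deposited tables quantified Cebpd on a model of 1180 nt, shorter than the span given here from the reference annotation, and the TPM of Cebpd and its place in the order of levels rest on that shorter model. The rise was 15.3-fold in WT (log2 3.93 ± 0.23, edgeR adjusted p = 1.04e-10), 18.4-fold in GILZ KO (log2 4.20 ± 0.24) and 13.2-fold in GILZ TG (log2 3.72 ± 0.23).

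Cebpb (chromosome 2, 167688915 to 167690418, plus strand), which already ranked behind only Spi1 at rest, rose by less. It went from 163.77, 180.18 and 217.27 TPM to 336.4, 361.61 and 422.09 TPM in WT. In GILZ KO it went from 134.23, 170.76 and 175.33 TPM to 380.14, 366.34 and 408.85 TPM, and in GILZ TG from 176.94, 197.05 and 220.81 TPM to 284.02, 281.79 and 332.12 TPM. Untreated and LPS libraries were apart in each genotype, with the narrowest gap in GILZ TG. The rise was 3.08-fold in WT (log2 1.62 ± 0.14, edgeR adjusted p = 1.41e-08), 3.74-fold in GILZ KO (log2 1.90 ± 0.14) and 2.34-fold in GILZ TG (log2 1.23 ± 0.14).

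Maf and Mitf, factors of the mature and the bone-resorbing macrophage, rose as well. Maf (chromosome 8, 115682942 to 115707794, minus strand) went from 52, 51.76 and 61.93 TPM to 174.09, 146.55 and 158.11 TPM in WT. In GILZ KO it went from 45.41, 53.21 and 45.03 TPM to 125.67, 141.57 and 139.02 TPM, and in GILZ TG from 44.33, 41.02 and 50.57 TPM to 128.42, 130.63 and 168.43 TPM. No LPS library was within reach of the untreated ones, and the rise was 4.81-fold in WT (log2 2.27 ± 0.14, edgeR adjusted p = 1.98e-10), 4.80-fold in GILZ KO and 5.33-fold in GILZ TG. Mitf (chromosome 6, 97807052 to 98021349, plus strand) went from 31.24, 30.47 and 27.13 TPM to 81.45, 70.49 and 84.77 TPM in WT. Over all genotypes it ranged from 27.13 to 32.8 TPM untreated (median 29.81) and from 65.73 to 84.77 TPM after LPS (median 70.49). Mitf was thus uniform at rest and its rise was 3.98-fold in WT (log2 1.99 ± 0.087, edgeR adjusted p = 1.42e-12), 3.67-fold in GILZ KO and 3.81-fold in GILZ TG.

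The paired E-box repressors fell together. Bhlhe40 (chromosome 6, 108660629 to 108666925, plus strand) went from 9.96, 8.69 and 9 TPM to 2.57, 2.81 and 3.63 TPM in WT, from 8.82, 10.55 and 10.83 TPM to 2.68, 1.98 and 2.47 TPM in GILZ KO, and from 11.2, 11.71 and 13.54 TPM to 3.3, 2.98 and 2.9 TPM in GILZ TG. Bhlhe41 (chromosome 6, 145858243 to 145865558, minus strand) went from 12.2, 10.19 and 9.93 TPM to 2.65, 1.26 and 1.69 TPM in WT, from 12.92, 9.67 and 13.48 TPM to 1.44, 1.1 and 1.19 TPM in GILZ KO, and from 10.25, 11.22 and 11.74 TPM to 1.57, 1.99 and 1.41 TPM in GILZ TG. Both were already the scarcest of the 9 factors, and all of their LPS libraries lay below all untreated ones. Bhlhe40 fell 2.33-fold in WT (log2 -1.22 ± 0.12, edgeR adjusted p = 1.21e-07), 2.46-fold in GILZ KO and 2.67-fold in GILZ TG. The fall of Bhlhe41 was 3.93-fold in WT (log2 -1.97 ± 0.17, edgeR adjusted p = 1.61e-08), 4.37-fold in GILZ KO and 4.66-fold in GILZ TG.

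**Figure D3:**
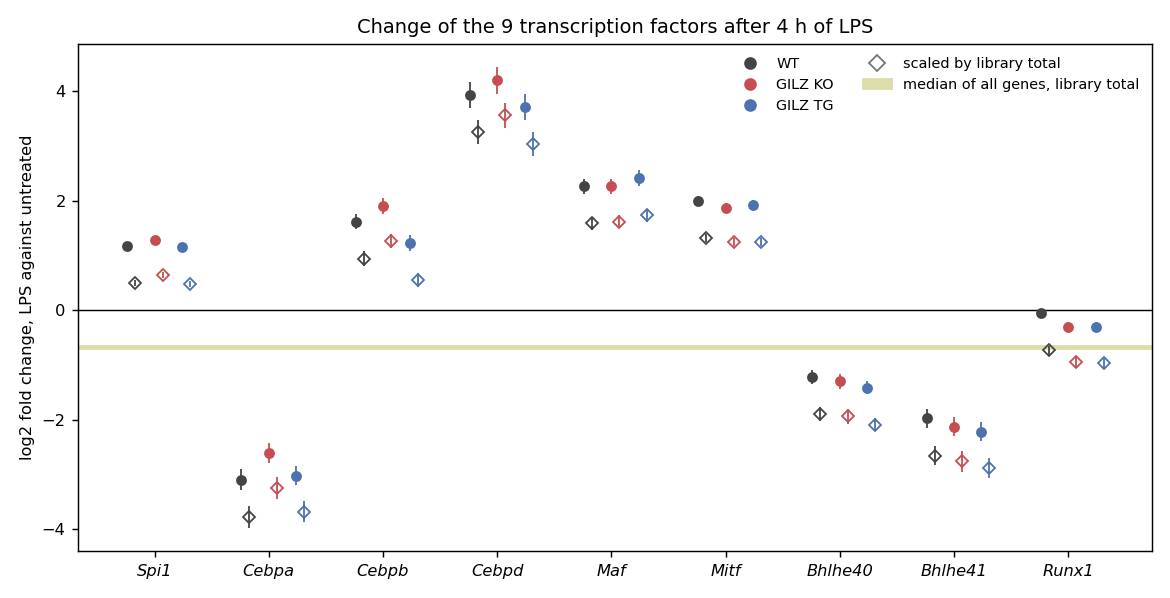
Log2 fold change after LPS (edgeR, bars are SE) of the 9 transcription factors in WT, GILZ KO and GILZ TG. Cebpd is highest (3.93 in WT) and Cebpa lowest (-3.09 in WT), and Runx1 lies near 0.

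Each factor but Spi1 shares its locus with an annotated gene on the opposite strand. For example, Cebpb overlaps Tmem189, Cebpd overlaps Spidr, and Maf overlaps Gm15655. The library kit keeps strand, but whether counting used it is not given in the sources used here, so some reads of these 8 genes may belong to the partner. Several cell type markers also moved with treatment. Of the 7 macrophage markers 5 rose in WT, 3 in GILZ KO and 6 in GILZ TG with TMM, where 33.5%, 33.2% and 33.6% of all genes rose. With scaling by library total Itgam, Mrc1 and Cd68 were lower after LPS in every genotype (-0.25, -0.29 and -0.53 in WT), which for Mrc1 did not pass the test. Adgre1 was higher in every genotype with that scaling (0.50 in WT, 0.59 in GILZ KO and 0.40 in GILZ TG). Mertk was at 0.58 in WT, -0.23 in GILZ KO and 0.98 in GILZ TG, and was called in GILZ TG only. With that scaling 68.3%, 67.2% and 68.3% of all genes were lower. The stromal markers Dcn and Pdgfrb rose in every genotype, but in GILZ TG neither call held with scaling by library total (adjusted p = 0.306 and 0.248), and their log2 changes there were 2.98 and 4.39 without GILZ TG replicates 1 and 2, against 1.27 and 1.30 with them. Of the neutrophil markers Camp rose in WT (log2 2.14, edgeR adjusted p = 0.0229; 0.0953 with scaling by library total). The B cell marker Cd79b fell in every genotype, with a log2 change of -0.49 in GILZ TG, or -0.35 (adjusted p = 0.43) with replicate 3 alone, and the B cell sum went from 32.69, 35.49 and 31.02 TPM to 21.05, 22.54 and 19.72 TPM in WT. The endothelial markers Kdr and Cdh5 rose in WT (log2 2.51 and 2.19, edgeR adjusted p = 2.63e-09 and 1.21e-06), and the endothelial sum went from between 2.52 and 3.99 TPM to between 6.8 and 12.17 TPM over all genotypes. The part of these markers' cells in the changes of the factors was not tested.

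Relatives and partners of the factors moved in both directions. Of 17 tested paralogs and dimer partners, 6 rose and 8 fell after LPS in WT, 8 and 8 in GILZ KO, and 5 and 9 in GILZ TG. Over all genes 33.5% rose and 35.1% fell in WT, 33.2% and 35.4% in GILZ KO, and 33.6% and 35.1% in GILZ TG. Mafk, a small MAF partner, rose (log2 2.86 ± 0.093), as did Tfec, the macrophage-restricted relative of MITF (2.48 ± 0.099). Tfeb, the lysosomal relative of MITF, fell (-2.32 ± 0.11). Thus Mitf rose while Tfeb fell, with each scaling. Among 16 other tested lineage factors 9 rose and 6 fell in WT, 10 and 6 in GILZ KO, and 7 and 5 in GILZ TG. Ikzf1, which encodes IKAROS, rose (3.15 ± 0.084), Zeb2, a factor of macrophage tissue identity, rose (1.32 ± 0.093), and Pparg, the lipid-sensing nuclear receptor, fell (-2.23 ± 0.069). With scaling by library total these counts became 4 rose and 11 fell for the paralogs and partners and 6 and 7 for the lineage factors in WT, where 15.9% of all genes rose and 68.3% fell.

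Genes known as targets of the factors were also counted. Of 16 genes bound by PU.1, C/EBP and RUNX1, 13 rose and 0 fell in WT, with a median log2 change of 0.713 against -0.0218 over all genes. The numbers were 13 and 0 in GILZ KO and 14 and 0 in GILZ TG. The shares of all genes were 33.5% and 35.1% in WT, 33.2% and 35.4% in GILZ KO, and 33.6% and 35.1% in GILZ TG. The Fc receptor gene Fcgr1 (3.21 ± 0.098), the NADPH oxidase subunit gene Cybb (3.03 ± 0.13), the G-CSF receptor gene Csf3r (2.88 ± 0.16) and the scavenger receptor gene Msr1 (1.41 ± 0.090) had the smallest adjusted p. Scaled by library total, 7 of the 16 rose and 7 fell with a median of 0.0322, against 15.9% higher and 68.3% lower over all genes and a median of -0.70. The 9 inflammatory genes known to be driven by C/EBPβ and C/EBPδ were listed for their induction by LPS, and only 5 of them passed the filter on low counts in untreated cells alone, so their rise is given as a description and not as a count. Nos2 went from 0.16, 0.16 and 0.08 TPM to 364.83, 294.61 and 371.72 TPM in WT, and Il6 from 0.54, 0.6 and 0.47 TPM to 874.04, 1087.09 and 1171.28 TPM.

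The remaining target lists gave mixed counts. Of 8 genes linked to MAF in macrophages, 3 rose and 1 fell in WT, 2 and 1 in GILZ KO, and 4 and 1 in GILZ TG. Il10, a direct MAF target, went from 6.27, 5.14 and 3.73 TPM to 88.43, 53.37 and 48.68 TPM in WT (log2 4.28 ± 0.25), and the scavenger receptor gene Stab1 fell (-0.39 ± 0.13). The complement gene C1qb (0.46 ± 0.16) and the mannose receptor gene Mrc1 (0.38 ± 0.16) were called higher with TMM, but their sign turned with scaling by library total (-0.22 and -0.29), which moved the median of all genes to -0.70. Of 9 osteoclast and lysosome genes of MITF and its relatives, 3 rose and 3 fell in each genotype, about the share over all genes (33.5% higher and 35.1% lower in WT). In WT the lysosomal chloride transporter gene Clcn7 (1.64 ± 0.081), the acid phosphatase gene Acp5 (1.57 ± 0.21) and the RANK gene Tnfrsf11a (0.80 ± 0.13) rose, whereas the osteoclast factor gene Nfatc1 (-1.20 ± 0.10), the fusion gene Dcstamp (-0.61 ± 0.13) and Ostm1 (-0.25 ± 0.056) fell.

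Clock genes, which BHLHE40 and BHLHE41 repress through E-boxes, mostly fell as well. Of 15 tested, 3 rose and 10 fell in WT, 1 and 9 in GILZ KO, and 3 and 10 in GILZ TG, with a median log2 change of -0.816 in WT. The period genes Per2 (-2.61 ± 0.29) and Per3 (-2.44 ± 0.26) and the clock output factor Tef (-2.03 ± 0.15) fell, and Nfil3, a repressor of clock output that is also induced by inflammatory signals, rose (1.68 ± 0.20). Over all genes 33.5% rose and 35.1% fell in WT. Scaled by library total, 1 clock gene was higher and 12 were lower, a scaling with which 68.3% of all genes were lower.

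Between genotypes, the factors differed little. In 6 genotype comparisons, each with 9 factors, 1 call was made: untreated Bhlhe40 was below its GILZ TG level in GILZ KO. GILZ KO and WT had 0 calls among the factors untreated (background 0.0951% of 12621 genes) and 0 after LPS (0.0822% of 12164 genes). GILZ TG and WT had 0 calls untreated (background 0.642%) and 0 after LPS (0.46%), and GILZ KO and GILZ TG had 1 untreated (background 4.94%) and 0 after LPS (2.6%). At an unadjusted p below 0.05 the edgeR test gave 2, 2 and 3 of the factors untreated and 0, 1 and 1 after LPS, in the order GILZ KO with WT, GILZ TG with WT, and GILZ KO with GILZ TG. Over all genes the shares at this p were 9.6%, 14.1% and 24.6% untreated and 9.63%, 15.2% and 19.1% after LPS. The comparisons of one treatment share libraries, so they are not independent of one another.

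The called difference in Bhlhe40 was small. It stood at 8.82, 10.55 and 10.83 TPM in untreated GILZ KO and at 11.2, 11.71 and 13.54 TPM in untreated GILZ TG, without overlap. WT was at 9.96, 8.69 and 9 TPM. The log2 difference of GILZ KO from GILZ TG was -0.40 ± 0.10 (edgeR adjusted p = 0.0495), that of GILZ TG from WT 0.40 ± 0.099 (adjusted p = 0.122) and that of GILZ KO from WT -0.0045 ± 0.10 (adjusted p = 0.993). The call between GILZ KO and GILZ TG was lost whenever 1 of the 6 libraries of these groups was left out (log2 from -0.48 to -0.29, adjusted p from 0.054 to 0.18), while the sign was kept. With GILZ TG replicate 3 alone the log2 difference was -0.61 (adjusted p = 0.0623).

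Spi1 and Cebpb had the next smallest adjusted p. Untreated Spi1, at 329.05, 383.21 and 373.62 TPM in GILZ KO and 377.51, 378.7 and 382.23 TPM in GILZ TG, overlapped between these genotypes. Its log2 difference was -0.18 ± 0.057 (edgeR adjusted p = 0.0873, DESeq2 adjusted p = 0.0238). The 95% interval, by a normal approximation, was -0.29 to -0.069. Intervals of this kind do not use the degrees of freedom of the edgeR test and are narrower than its own. After LPS Cebpb was at 380.14, 366.34 and 408.85 TPM in GILZ KO and at 284.02, 281.79 and 332.12 TPM in GILZ TG, again without overlap, with WT at 336.4, 361.61 and 422.09 TPM. The log2 difference was 0.36 ± 0.10 between GILZ KO and GILZ TG (edgeR adjusted p = 0.0874) and -0.32 ± 0.10 between GILZ TG and WT (adjusted p = 0.181). That between GILZ KO and GILZ TG was called with DESeq2, with no filter and with the replicate number as a block. In untreated cells the sign was the other way, with Cebpb at -0.34 ± 0.14 in GILZ KO relative to GILZ TG (adjusted p = 0.18). The size of the difference in Cebpb between GILZ KO and GILZ TG after LPS was 0.45 without GILZ TG replicate 3 (adjusted p = 0.0117) and 0.17 with that replicate as the only GILZ TG library (adjusted p = 0.652), where that between GILZ TG and WT was -0.14 (adjusted p = 0.878).

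TPM without overlap between 2 genotypes was not unusual. Untreated, it occurred for 0 factors between GILZ KO and WT (17.2% of genes), 2 between GILZ TG and WT (Maf and Bhlhe40, 14.9%) and 2 between GILZ KO and GILZ TG (Cebpb and Bhlhe40, 28.7%). After LPS it occurred for 2 between GILZ KO and WT (Cebpa and Maf, 16.3%), 1 between GILZ TG and WT (Cebpb, 15.2%) and 2 between GILZ KO and GILZ TG (Cebpb and Bhlhe40, 20.6%). Cebpa after LPS, at 4.27, 2.74 and 2.67 TPM in GILZ KO and 2.35, 2.33 and 2.04 TPM in WT, had the widest difference of all (log2 0.53 ± 0.26, edgeR adjusted p = 0.562). For Spi1 the normal-approximation 95% interval of the log2 difference between GILZ KO and WT was -0.24 to -0.018 untreated. After LPS it was -0.12 to 0.13, and for Mitf between untreated GILZ KO and WT it was -0.13 to 0.13. Intervals with the degrees of freedom of the edgeR test would be wider.

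**Figure D4:**
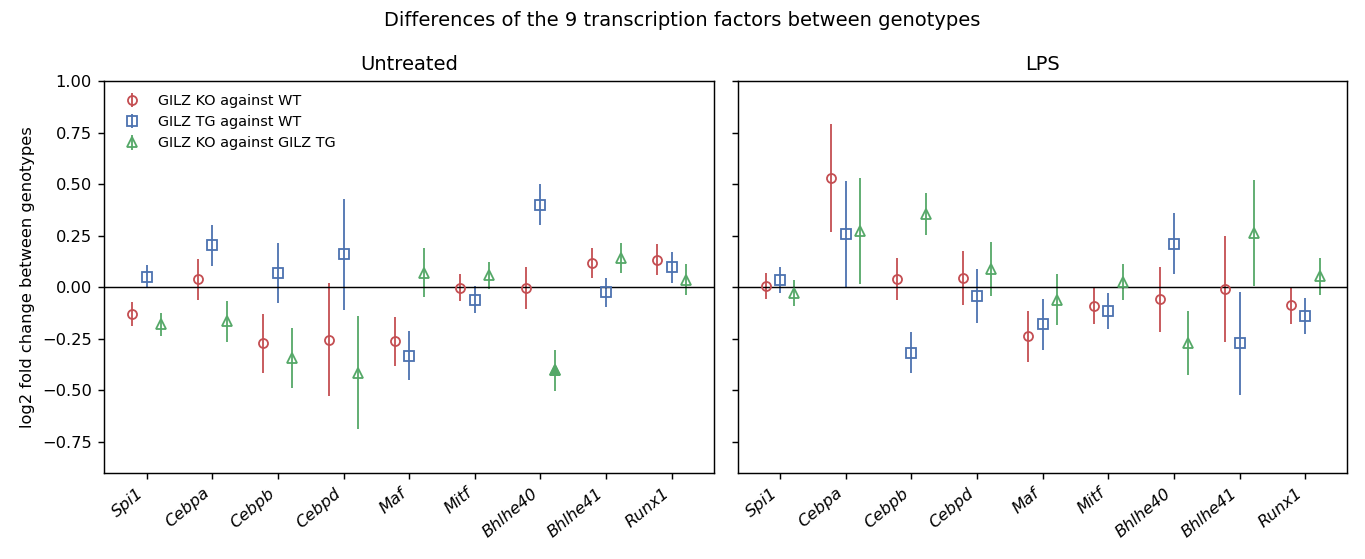
Log2 differences between genotypes (edgeR, bars are SE) for the 9 transcription factors, untreated and after LPS; a filled triangle marks a called difference. Only untreated Bhlhe40 between GILZ KO and GILZ TG is called (-0.40), and the remaining values lie between -0.42 and 0.53.

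The response to LPS was compared between genotypes directly, as a difference of log2 changes. With edgeR and no block, none of the 9 factors was called in GILZ KO against WT, GILZ TG against WT or GILZ KO against GILZ TG. Of all genes 0.0152%, 0.00759% and 0.121% were called. The edgeR test gave 0, 1 and 1 factors at an unadjusted p below 0.05 (6.36%, 3.09% and 9.92% of all genes). Cebpb had the widest gap, with a response 0.68 ± 0.19 larger in GILZ KO than in GILZ TG on the log2 scale (edgeR adjusted p = 0.188). The 95% interval, by the normal approximation, was 0.30 to 1.05. With DESeq2, or with the replicate number as a block, this difference was called, though the numbers were not taken to pair libraries in GILZ KO. The response of Cebpb was 0.28 ± 0.19 larger in GILZ KO than in WT and -0.39 ± 0.19 in GILZ TG relative to WT.

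Some targets and partners did differ between GILZ KO and GILZ TG. Of 17 tested paralogs and partners, 1 was higher and 1 lower in untreated GILZ KO (2.77% and 2.16% of all genes). In LPS libraries 1 was higher and 0 were lower (1.22% and 1.38% of all genes). After LPS, 3 of the 9 inflammatory C/EBP target genes were higher in GILZ KO (1.22% of all genes were). The interleukin gene Il12b was at 40.97, 51.26 and 53.77 TPM in GILZ KO, at 22.69, 18.23 and 12.47 TPM in GILZ TG and at 30.35, 33.81 and 35.22 TPM in WT, without overlap (GILZ KO against GILZ TG log2 1.43 ± 0.18, edgeR adjusted p = 0.00585). The G-CSF gene Csf3 (1.35, adjusted p = 0.0325) and the acute phase gene Saa3 (1.39, adjusted p = 0.0477) were higher as well. With GILZ TG replicate 3 as the only GILZ TG library the log2 differences were 1.90 for Il12b (adjusted p = 0.00463), 0.73 for Csf3 (adjusted p = 0.354) and 0.75 for Saa3 (adjusted p = 0.427).

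In untreated cells 3 of the 8 MAF-linked genes stood lower in GILZ KO relative to GILZ TG, all of them subunits of complement C1q (2.16% of all genes were lower). C1qa was at 63.28, 78.18 and 78.3 TPM in GILZ KO and at 203.34, 258.65 and 112.54 TPM in GILZ TG (log2 -1.42, edgeR adjusted p = 0.0139), and C1qb (-0.71) and C1qc (-0.68) were called too. The high values sat in GILZ TG replicates 1 and 2, the libraries with raised stromal, neutrophil and B cell markers, and the part of these cells in the difference was not tested. Without them, with 1 GILZ TG library left, C1qa was at -0.67 (adjusted p = 0.0642), C1qb at -0.30 (adjusted p = 0.184) and C1qc at -0.32 (adjusted p = 0.216). Of the 9 tested osteoclast and lysosome genes, 0 were higher and 1 lower in untreated GILZ KO relative to GILZ TG (2.77% and 2.16% of all genes). After LPS 1 was higher and 1 lower (1.22% and 1.38% of all genes). The lower gene was the osteoclast fusion gene Dcstamp, both untreated (-0.73) and after LPS (-0.75). Dcstamp was also higher in untreated GILZ TG than in WT (0.81 ± 0.11, edgeR adjusted p = 0.0137). With replicate 3 as the only GILZ TG library these 3 differences of Dcstamp were no smaller, at -0.87, -0.82 and 0.95, with adjusted p of 0.0642, 0.0718 and 0.0706.

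The deposited tables also hold the length of each gene's transcripts, weighted by the share of each isoform, which is a readout other than level. It varied for 6 of the 9 factors, since Cebpa, Cebpb and Cebpd had the same length in every library. For Maf the weighted length was 5050 to 5247 nt in untreated and 5498 to 5671 nt in LPS libraries, without overlap, a mean difference of 434 nt. A two-sided exact permutation test of the treatment labels within genotypes gave p = 0.00025, the smallest that its 8000 arrangements allow, and 0.0015 after Benjamini-Hochberg adjustment over the 6 genes. Spi1, Mitf, Bhlhe40, Bhlhe41 and Runx1 had adjusted exact p-values between 0.225 and 0.512.

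Maf has a pair of protein-coding transcripts in the reference annotation, of 3223 and 6360 nt. If the deposited values rest on the same pair, the weighted length gives the share of the longer one. The deposited tables used another model for Cebpd, so the shares and the TPM of each transcript are given under this assumption. In WT the longer transcript made up 64.52%, 62.2% and 63.89% of Maf molecules untreated and 78.05%, 76.16% and 74.68% after LPS. In GILZ KO it went from 63.04%, 62.06% and 60.79% to 75.72%, 76.03% and 77.75%, and in GILZ TG from 58.24%, 59.55% and 61.1% to 72.53%, 74.04% and 74.92%. Every LPS library was above every untreated one, and the GILZ TG mean was lowest in both treatments, although its libraries overlapped with those of another genotype. Under the same assumption both transcripts rose, the longer from a mean of 30.6 to 110 TPM and the shorter from 18.9 to 35.6 TPM over the 9 libraries of each treatment. Isoform shares were estimated from short single-end reads, so no interval for them can be given here.

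**Figure D5:**
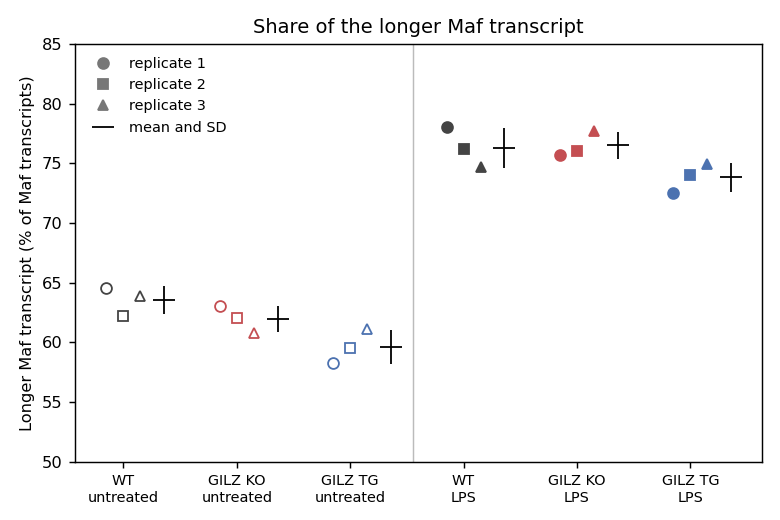
Share of the longer Maf transcript (percent, axis from 50 to 85) in each library by genotype, with open symbols for untreated and filled symbols for LPS. The share was derived from the weighted length, assuming the pair of transcripts of the reference annotation. Untreated libraries lie between 58.24% and 64.52% and LPS libraries between 72.53% and 78.05%.

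Promoter sequence was available for 5 of the 9 factors in RefSeq (GRCm38.p6), as 8 promoters, each read as the 250 bases before a transcription start. They were searched on both strands for the E-box CACGTG bound by MITF and the BHLHE40 and BHLHE41 repressors, the PU.1 motif GAGGAAG, the RUNX motif TGNGGT and the C/EBP motif TTGCNNAA. Of 32817 mouse promoters of this length, 6.02% hold the E-box, 10.6% the PU.1 motif, 40.1% the RUNX motif and 9.57% the C/EBP motif. The 3 promoters with a match are shown because they place letters of the factors' own motifs before genes of the same group, with matches in capitals. The first belongs to Bhlhe41 (chr6:145865421-145865670, minus strand), with an E-box 153 bases before the start. The second is the distal promoter of Runx1 (chr16:92826075-92826324, minus strand), with an E-box at 71 bases. The third is the most upstream promoter of Mitf (chr6:97806808-97807057, plus strand), with a C/EBP match at 129 bases and a RUNX match, read on the opposite strand as ACCACA, at 81 bases.
Bhlhe41: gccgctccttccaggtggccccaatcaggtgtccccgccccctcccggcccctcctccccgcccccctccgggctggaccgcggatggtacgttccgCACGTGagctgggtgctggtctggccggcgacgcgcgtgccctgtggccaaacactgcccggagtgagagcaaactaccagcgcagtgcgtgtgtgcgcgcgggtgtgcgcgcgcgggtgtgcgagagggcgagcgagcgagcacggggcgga
Runx1 distal: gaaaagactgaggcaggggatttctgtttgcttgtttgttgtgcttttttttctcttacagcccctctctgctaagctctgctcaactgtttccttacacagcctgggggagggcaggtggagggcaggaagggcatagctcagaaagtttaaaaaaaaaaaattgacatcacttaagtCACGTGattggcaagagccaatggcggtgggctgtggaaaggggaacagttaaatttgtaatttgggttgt
Mitf first: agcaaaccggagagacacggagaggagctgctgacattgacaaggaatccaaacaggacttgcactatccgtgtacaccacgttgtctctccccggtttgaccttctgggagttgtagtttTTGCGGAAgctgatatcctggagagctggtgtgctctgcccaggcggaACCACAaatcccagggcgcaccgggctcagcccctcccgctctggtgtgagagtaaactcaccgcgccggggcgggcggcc
The promoters of Cebpa and Cebpb, the other Runx1 promoter and the other 2 Mitf promoters held none of these letters. A match is a string of letters and not a measured binding site. Spi1, Cebpd, Maf and Bhlhe40 had no entry in the promoter table.

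The weighted length of Mitf was between 4839 and 4881 nt in 17 of 18 libraries. Which Mitf transcripts or promoters this length reflects was not tested. The exception was WT replicate 3 with LPS, at 4366 nt.

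Genes with the most similar pattern to each factor were listed by the root mean square difference of log2(TPM + 1), each gene centred on its own mean, over the 18 libraries and among 9371 genes with a mean of at least 5 TPM. Vps37b (0.07) was closest to Spi1, Cd14, which encodes the LPS co-receptor (0.111), to Cebpb, and Ccl7, a monocyte chemokine gene (0.2), to Cebpd. For Cebpa the nearest were 2410002F23Rik and Paqr7 (both 0.16), and for Bhlhe41 it was Ccnd1, which encodes cyclin D1 (0.158). Sgk3 (0.116) was closest to Maf, Spred1 (0.0851) to Mitf, Rbfa (0.109) to Bhlhe40 and Ranbp9 (0.0683) to Runx1. Next came Tmbim6 and Ddx24 for Spi1, Jade1 for Cebpa, Lrrc25 and Il21r for Cebpb, Gm6377 and Trex1 for Cebpd, Ppp2r5a and Cept1 for Maf, Rnf139 and Susd6 for Mitf, Rnf166 and Upf3b for Bhlhe40, Gnpda1 and Arhgap5 for Bhlhe41, and Pold3 and Vav1 for Runx1. Since treatment sets most of the variation in these libraries, a small difference mainly says that a gene has a like change after LPS.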

How the data were processed

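RNA sequencing of 18 libraries of BMMs (3 genotypes, untreated or LPS, 3 preparations each) was re-analysed from the gene tables. Per the labels and the study's methods, poly(A) RNA was sequenced as single-end reads, and the authors checked the reads with FastQC 0.11.2 and mapped and quantified them against GRCm38 with the grape-nf pipeline. The authors deposited, for each library, an expected count, TPM and the weighted transcript length of 38887 genes. The expected counts deposited by the authors need not be whole and were rounded. The authors' DESeq2 tables (version 1.40.2) hold log2 fold changes and p-values of their comparisons, which were not used. Their gene symbols were used to find the factors. Symbols of all genes came from a reference list, in which 37570 identifiers had one.

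Counts were tested with edgeR 4.0.16 (R 4.3.3; TMM, filterByExpr by group, glmQLFit and glmQLFTest) with Benjamini-Hochberg adjustment over all genes tested at 0.05. Genotypes were compared within a treatment over 9 libraries, and LPS with untreated, and the differences between responses, over all 18. On simulated counts the test recovered 94% of 200 genes changed by a log2 of 1 among 12515 genes with 6.47% false calls in the first design (GILZ KO against WT, untreated), and 94.5% among 12817 genes with 5.03% false in the second (LPS against untreated, WT). The simulation gave every gene a dispersion of 0.02 and all groups a common mean profile. It therefore does not give the recovery of smaller differences, or of differences between libraries that vary more. The alternatives were DESeq2 1.42.0, DESeq2 size factors, limma 3.58.1 on log2(TPM + 1) or log2(TPM + 0.1), no filter, a replicate block, all 18 libraries together, and leaving out each library. Scaling by library total and leaving out GILZ TG replicates 1 and 2 were chosen after seeing the data. Weighted length was tested by exact permutation within genotypes, with log2, effective length and a block as alternatives.

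The 9 factors and the gene lists were chosen with earlier results of these data known. The text names all 9 factors, up to 4 list genes with the smallest adjusted p in each comparison described and any needed to account for a count of 5 or fewer, and the 3 most similar genes per factor. Some genes that this rule would name are not reported here. Replicates differed by more than sampling noise, so none was counted as a duplicate.

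The pairing of replicate numbers was checked by the correlation of deviations from group means over 13169 genes. Of 9 pairs of untreated and LPS libraries 4 had a correlation over 0.1, among them all 3 of GILZ TG, and of 18 pairs between genotypes 2 did. By this threshold the numbers were taken to mark shared preparations within GILZ TG, but not in WT, in GILZ KO or between genotypes. The evidence was partial, since 5 of the 9 pairs correlated best with their own number. Replicate 1 of GILZ TG (0.266) did not, whereas replicate 1 of WT (0.264) did. The block changed no call of a factor in the LPS comparison of GILZ TG.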

Additional observations from a re-analysis of the deposited data

Results flagged for a closer look

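A difference between genotypes in the response to LPS, tested directly with edgeR over 18 libraries, was found for Bach1 and Tsc22d3. Bach1, a repressor that pairs with small MAF proteins, had a lower log2 change in GILZ KO than in GILZ TG (difference -0.68 ± 0.12 SE, edgeR adjusted p = 0.0271). No gene was called in this comparison without the LPS library of GILZ KO replicate 3, or without that of GILZ TG replicate 2, so this call was lost there. Scaled by library total, the log2 change of Bach1 was -0.18 in GILZ KO and 0.47 in GILZ TG (difference -0.65). Bach1 stood at 32.78, 33.94 and 34.75 TPM untreated and 29.13, 32.03 and 26.87 TPM after LPS in GILZ KO. In GILZ TG it was at 27.71, 25.69 and 26.39 TPM untreated and 38.83, 41.96 and 34.07 TPM after LPS. In WT it went from 31.39, 28.78 and 26.99 TPM to 43.53, 33.16 and 37.54 TPM. With GILZ TG replicate 3 as the only GILZ TG library of each treatment, assumed to vary like the other groups, the difference was -0.56 (adjusted p = 0.531). Tsc22d3, the manipulated gene, fell after LPS in WT and responded differently in GILZ KO (2.02 ± 0.22, adjusted p = 0.000782) and in GILZ TG (1.43 ± 0.16, adjusted p = 0.00139).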

How the results depend on the processing

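The LPS changes of the 9 factors kept their direction under every alternative run, and 383 of these values stayed on their side of the threshold. The exceptions were Runx1 in WT, called with limma on log2(TPM + 1) (-0.64) and log2(TPM + 0.1) (-0.69) and with scaling by library total (-0.73), and Runx1 in GILZ TG without GILZ TG replicates 1 and 2 (-0.33). List genes whose sign turned included C1qb after LPS in WT (-0.18 and -0.18 with limma at the 2 pseudocounts, -0.22 with scaling by library total). Mrc1 did so as well (-0.25, -0.25 and -0.29), as did Col1a1 after LPS between GILZ KO and GILZ TG without GILZ TG replicates 1 and 2 (0.17). Itgam and Cd68 after LPS in WT turned with scaling by library total (-0.25 and -0.53). Dcn and Pdgfrb between untreated GILZ KO and GILZ TG turned without GILZ TG replicates 1 and 2 (0.63 and 0.94). Leaving out 1 library gave 8 factors called after LPS in WT and 9 in GILZ KO and GILZ TG each time, and 8543 to 8819, 8536 to 8692 and 8560 to 8780 genes.

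Between GILZ KO and GILZ TG untreated, 1 factor was called, but 2 with DESeq2 (Bhlhe40 and Spi1), 0 with limma at either pseudocount, 0 with all 18 libraries in 1 fit, 0 without GILZ TG replicates 1 and 2 (which leaves 1 GILZ TG library, assumed to vary like the other groups), and 0 to 0 leaving out 1 library. After LPS this comparison had 0, but 1 (Cebpb) with DESeq2, with no filter and in 0 to 1 leaving out 1 library. GILZ TG and WT had 1 (Bhlhe40) untreated with DESeq2 and 0 to 2 after LPS leaving out 1 library, the 2 (Cebpb and Maf) without GILZ TG replicate 3. The LPS response of GILZ KO against GILZ TG had 1 (Cebpb) with DESeq2. The number of factors with a called change of weighted length went from 1 to 0 leaving out a replicate number, where the smallest adjusted p possible is 0.0556.

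With the replicate number as a block, GILZ KO and GILZ TG had 2 factors called untreated (Bhlhe40 and Cebpb), 1 after LPS (Cebpb) and 1 in the response (Cebpb), and the genes called in the response were 8 for GILZ KO against WT, 2 for GILZ TG against WT and 144 for GILZ KO against GILZ TG. The block changed no other count of factors. It kept the change in Maf length (exact p = 0.00391, adjusted p = 0.0234).

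Counts of all genes between genotypes moved more. With DESeq2, untreated GILZ KO against WT, GILZ TG against WT and GILZ KO against GILZ TG gave 79, 315 and 1218 genes (from 12, 81 and 623), and after LPS 100, 274 and 715 (from 10, 56 and 316). With no filter the counts were 21 and 175 for the first 2 untreated comparisons and 88, 412 and 822 after LPS. With limma on log2(TPM + 1) they were 41 and 268 for the comparisons with GILZ TG untreated and 17, 30 and 147 after LPS, and on log2(TPM + 0.1) 32 and 264, and 31 and 149. All 18 libraries in 1 fit gave 29, 252 and 795 after LPS. Without GILZ TG replicates 1 and 2 the counts were 26 and 34 untreated and 34 after LPS for GILZ KO against GILZ TG. Leaving out 1 library gave 5 to 6, 16 to 665 and 79 to 1306 untreated and 4 to 23, 15 to 1067 and 24 to 1403 after LPS, with each highest count that involves GILZ TG reached without its replicate 3. For the response to LPS, GILZ KO against WT (2 genes) gave 20 with DESeq2, 1 with DESeq2 size factors, 1 with limma at either pseudocount, 1 with scaling by library total and 1 to 4 leaving out 1 library. GILZ TG against WT (1) gave 2 with DESeq2, 2 with limma on log2(TPM + 1), 0 without GILZ TG replicates 1 and 2, and 1 to 8. GILZ KO against GILZ TG (16) gave 150 with DESeq2, 63 with no filter, 10 with limma on log2(TPM + 0.1), 28 with scaling by library total, 0 without GILZ TG replicates 1 and 2, and 0 to 82. The cause of these changes was not tested, apart from there being fewer libraries where some are left out. Bhlhe41, the scarcest factor after LPS, was at 1.1 TPM or more in every library.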
